A study of Mus musculus with 8 samples.

Results

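The genes described here are 10 transcripts of the circadian clock: the activators Arntl and Npas2, the repressors Per1, Per2, Per3, Cry2 and Nr1d1, and the PAR bZIP genes Dbp, Tef and Hlf. They were picked by symbol from the 22609 gene symbols of the count files, and they were chosen from earlier results on these same libraries, with their level in each library (CPM, read counts scaled to library size) and the way they varied together in view. Their levels, their female against male differences and their co-variation are therefore given as descriptions without a p-value. All 10 were in the files, and all 10 were among the 14790 genes that passed the filter on low counts. The libraries came from the paw of C57BL/6J mice, 4 labelled male and 4 labelled female. The labels do not say whether each library is a separate animal. Every library is labelled as treated with 0.1 µg of the pituitary hormone prolactin (PRL) for 12 days, by 1 daily injection into the sole of the paw. Both sexes thus share the treatment, and the PBS and single-injection arms that the protocol lists were not analysed here. For age and the hour of collection, the sources used here give nothing.

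The mammalian clock is a feedback loop of transcription. BMAL1, the product of Arntl, pairs with CLOCK or its relative NPAS2 on E-box sequences and drives the Per, Cry and Nr1d genes, whose products then hold the activators in check. The nuclear receptors REV-ERB alpha (Nr1d1) and beta (Nr1d2) bind ROR elements (RORE) and repress Arntl and Npas2, so these genes peak at the opposite time of day to Nr1d1. DBP, TEF and HLF share a proline- and acid-rich (PAR) basic leucine zipper, bind D-box sequences and pass the rhythm on to output genes. Epidermis, dermis and skeletal muscle, all present in a paw, have clocks of their own.

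Counts in genes ran from 16753528 to 24993744 per library. Xist and 4 Y-linked genes matched the sex label in 8 of 8 libraries. Keratinocyte markers were abundant throughout, with a mean log2 CPM of 10.38 to 10.95 over 17 genes. The amount of muscle in the sample differed widely. The summed CPM of 20 fast skeletal muscle genes ran from 1412 to 37787 in males and from 212 to 28476 in females, with no marker at 0 counts in any library. Female replicate 3 had the lowest fast muscle score (mean log2 CPM 0.997) and male replicate 2 the highest (10.36). In whole tissue, fewer cells of a type and less RNA per cell cannot be told apart.

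To show the sequences through which the loop is known to work, promoter windows of 300 bases (250 before to 50 after a RefSeq start, build GRCm38.p6) were searched on both strands. Windows were found for 9 of the 10 genes, 12 in all. The motifs were the E-box CACGTG, its variant CACGTT, the D-box (TTATGTAA or TTACGTAA), the RORE by its published consensus, and the cyclic AMP response element TGACGTCA. Of all 32851 windows of this length, 7.15% held the E-box, 4.68% the variant, 1.06% the D-box, 0.384% the RORE and 1.79% the cyclic AMP element. The 5 windows shown were picked from those that held a match. Capitals mark the match. Per1 (chr11:69098699-69098998, plus strand) and Tef (chr15:81811164-81811463, plus strand) hold an E-box, Per3 (chr4:151044616-151044915, minus strand) holds 2 D-boxes, Arntl (chr7:113207261-113207560, plus strand) a RORE, and Hlf (chr11:90390868-90391167, minus strand) a cyclic AMP element.
Per1: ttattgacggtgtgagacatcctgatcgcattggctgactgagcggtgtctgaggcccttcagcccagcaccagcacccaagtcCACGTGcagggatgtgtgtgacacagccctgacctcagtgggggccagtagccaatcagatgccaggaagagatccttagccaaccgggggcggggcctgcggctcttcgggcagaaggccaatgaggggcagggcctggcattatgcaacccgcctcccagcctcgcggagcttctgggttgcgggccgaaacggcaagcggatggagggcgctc
Tef: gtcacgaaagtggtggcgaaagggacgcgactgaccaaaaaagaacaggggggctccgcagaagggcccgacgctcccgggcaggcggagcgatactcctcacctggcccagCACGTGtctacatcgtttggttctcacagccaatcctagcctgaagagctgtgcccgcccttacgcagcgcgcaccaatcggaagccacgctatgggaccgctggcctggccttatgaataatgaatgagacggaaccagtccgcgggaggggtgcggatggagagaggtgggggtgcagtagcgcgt
Per3: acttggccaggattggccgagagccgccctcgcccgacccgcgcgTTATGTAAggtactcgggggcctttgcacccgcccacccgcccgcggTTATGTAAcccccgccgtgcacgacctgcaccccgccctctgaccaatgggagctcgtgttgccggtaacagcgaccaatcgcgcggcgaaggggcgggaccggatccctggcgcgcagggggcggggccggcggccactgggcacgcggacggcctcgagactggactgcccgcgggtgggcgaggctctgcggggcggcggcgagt
Arntl: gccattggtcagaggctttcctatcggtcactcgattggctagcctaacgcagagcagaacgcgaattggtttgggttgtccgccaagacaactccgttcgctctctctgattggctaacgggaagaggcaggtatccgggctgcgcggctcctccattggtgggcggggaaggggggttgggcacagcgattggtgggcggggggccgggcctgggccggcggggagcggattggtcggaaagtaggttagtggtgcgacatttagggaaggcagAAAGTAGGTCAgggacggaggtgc
Hlf: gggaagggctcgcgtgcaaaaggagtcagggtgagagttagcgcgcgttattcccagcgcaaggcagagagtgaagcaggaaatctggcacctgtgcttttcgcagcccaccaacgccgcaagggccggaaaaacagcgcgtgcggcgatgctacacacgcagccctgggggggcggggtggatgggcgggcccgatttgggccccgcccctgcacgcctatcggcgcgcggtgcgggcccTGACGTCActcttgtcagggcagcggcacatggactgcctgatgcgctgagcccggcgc
The E-box of Per1 lay at bases 85 to 90 of its window, counted from the 5′ end, and that of Tef at 113 to 118. A further Tef window, at another start, also held an E-box, at bases 124 to 129. The D-boxes of Per3 lay at 46 to 53 and 93 to 100, and the RORE of Arntl lay downstream of the start, at 277 to 287. The E-box variant was found in Cry2 and Nr1d1. The windows of Npas2 and Dbp, and a further window each of Per1 and Arntl, held none of these letters. A match is a description of the sequence and does not show binding, and clock elements outside these windows were not searched.

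Per length of transcript, Nr1d1 and Tef led the members and Per2 stood last in both sexes. On the RPKM scale (CPM divided by the GENCODE M21 exon length in kilobases), Nr1d1 was highest in males at 60.2 ± 14.2 (SD, n = 4), followed by Tef at 42.7 ± 9.38, and the libraries of the 2 genes overlapped. Arntl at 22.6 ± 2.42, Dbp at 20.6 ± 4.73 and Cry2 at 17.1 ± 3.09 formed a middle group whose neighbours overlapped between libraries. Per1 followed at 10.1 ± 1.38, clear of its neighbours on both sides. Per3 at 7.12 ± 1.19 and Hlf at 6.16 ± 0.458 overlapped, as did Npas2 at 3.86 ± 0.839 and Per2 at 2.71 ± 0.789 at the bottom. In females the order was Nr1d1 (72.4 ± 6.08 RPKM), Tef (38.1 ± 8.27), Arntl (26.1 ± 2.58), Cry2 (24.3 ± 4.53), Dbp (20.9 ± 4.20), Per1 (16.1 ± 1.23), Hlf (11.5 ± 2.12), Per3 (7.84 ± 1.63), Npas2 (4.40 ± 0.795) and Per2 (4.06 ± 1.77). The female neighbours from Arntl down to Per1, Hlf with Per3, and Npas2 with Per2 overlapped between libraries. Hlf stood below Per3 in the male order and above it in the female order.

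The 2 activators overlapped between the sexes. Arntl, the partner without which the loop does not run, stood at 72.4, 79.0, 63.9 and 63.4 CPM in male replicates 1 to 4. Its female values were 72.2, 88.0, 75.6 and 87.0 CPM, so the sexes overlapped (log2 fold change, female over male, 0.21, SE 0.10). Npas2, which takes the place of CLOCK in several tissues, stood at 21.4, 13.4, 16.0 and 14.5 CPM in males and at 15.3, 23.2, 17.3 and 18.8 CPM in females (0.19, SE 0.18). Male replicate 1 and female replicate 2 were the highest of their sex for Npas2.

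Among the Period genes, which encode the repressors that pair with the cryptochromes, Per1 stood apart. Per1 stood at 54.2, 64.7, 61.5 and 47.4 CPM in males and at 96.9, 81.3, 94.9 and 89.7 CPM in females. The lowest female lay above the highest male, and the female mean was 1.59 times the male mean (90.7 ± 6.94 against 56.9 ± 7.74 CPM, log2 fold change 0.67, SE 0.11). Per2 had male values of 11.49, 17.5, 21.5 and 12.8 CPM and female values of 26.2, 12.3, 36.6 and 19.7 CPM. It was the most variable member, with a 3.18-fold range over the 8 libraries, and the sexes overlapped (0.58, SE 0.34). Per3 had 33.3, 49.9, 45.9 and 41.8 CPM in males and 58.0, 37.7, 52.4 and 40.0 CPM in females, again overlapping (0.14, SE 0.17).

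Cry2, which encodes the cryptochrome that joins PER proteins in the repressor complex, stood at 66.2, 90.5, 80.1 and 61.0 CPM in males. In females it stood at 114.8, 90.3, 128.6 and 87.9 CPM. Male replicate 2 reached the level of female replicates 2 and 4, so the groups overlapped (log2 fold change 0.50, SE 0.17). Nr1d1 had 124.7, 215, 148 and 168 CPM in males and 219, 194, 195 and 179 CPM in females (0.26, SE 0.16). The male libraries were spread more widely than the female ones, with a coefficient of variation of 23.5% against 8.40%.

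The PAR bZIP genes did not move as 1 group. Dbp, the output gene best known for its large daily swing, stood at 25.7, 41.4, 38.02 and 45.9 CPM in males and at 42.7, 26.9, 43.2 and 40.7 CPM in females. Male replicate 1 and female replicate 2 were low, the other 6 libraries lay between 38.02 and 45.9 CPM, and the sexes had nearly the same mean (log2 fold change 0.02, SE 0.21). Tef had 168, 266, 192 and 179 CPM in males and 226, 136, 194 and 162 CPM in females, and it was the only member below 0 (-0.16, SE 0.19). Hlf had 31.5, 36.1, 34.0 and 37.5 CPM in males and 60.6, 74.5, 74.1 and 49.6 CPM in females. Every female library lay above every male library, at 64.7 ± 12.0 against 34.8 ± 2.59 CPM, 1.86 times as high (0.90, SE 0.14). Set against its relative within each library, Hlf was 0.136 to 0.209 of the Tef CPM in males and 0.268 to 0.546 in females.

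**Figure D1:**
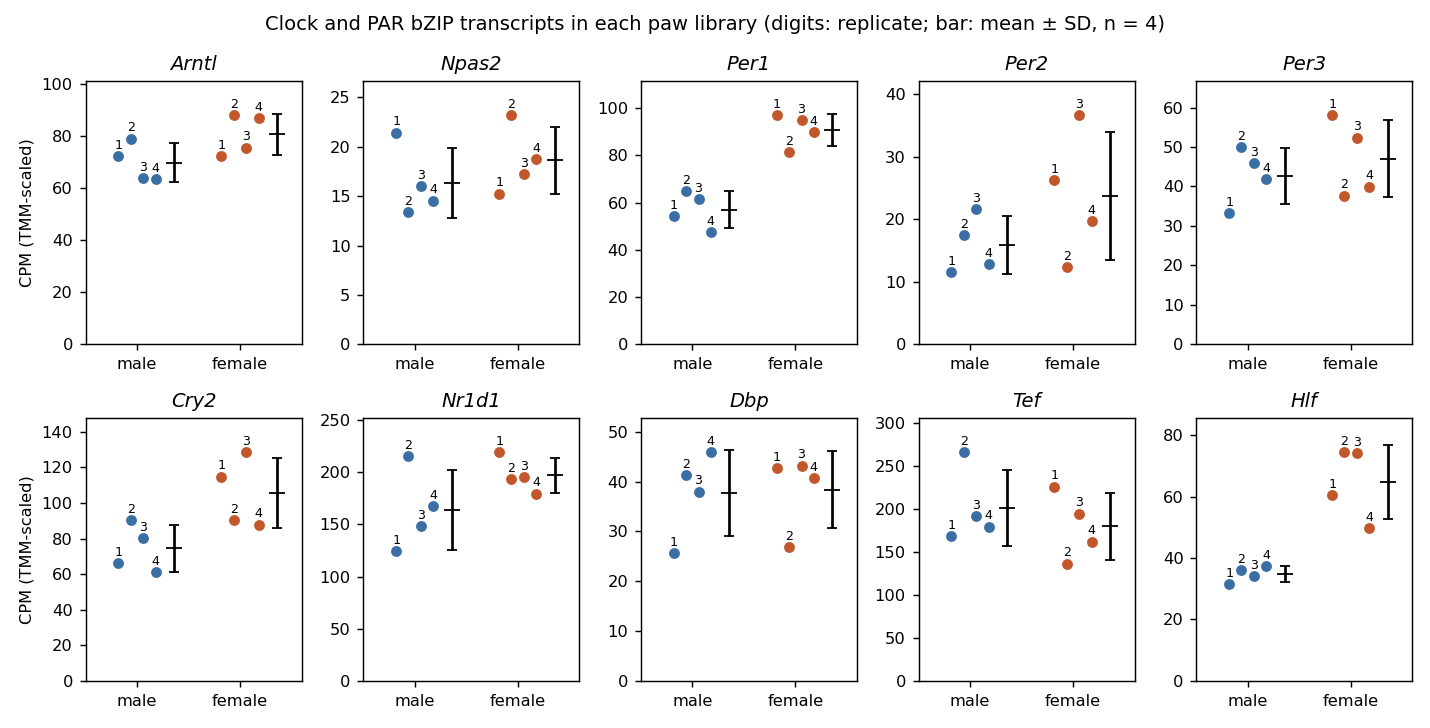
CPM (y axis, scaled by TMM, from 0) of the 10 members in each library, males in blue and females in orange, with digits for the replicate and bars for the mean ± SD (n = 4). The sexes do not overlap for Per1 and Hlf, and male replicate 1 and female replicate 2 are low for Dbp and high for Npas2.

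Across the 10 members, 9 log2 fold changes lay above 0, with a median of 0.24, against 52.7% above 0 and a median of 0.01 over all tested genes. The sexes did not overlap for 2 of the 10, Per1 and Hlf, both higher in females, and such a gap in that direction was seen for 2.93% of all tested genes. With edgeR, 0 of the 10 passed an adjusted p under 0.05, where 0.0947% of all genes did (0.0406% with the female level higher), and 3 of the 10 had an unadjusted p under 0.05, against 6.53%. DESeq2 called 2 of the 10 (Per1 and Hlf; background 0.757%) and limma-voom 0 (background 0.108%). Without female replicate 4, edgeR called 1, Hlf (log2 fold change 0.9985, SE 0.11). Because the members were chosen with these differences known, nothing is read from these counts. The direction of Dbp is not settled: its log2 fold change lay between -0.12 and 0.16 when single libraries were left out, while those of the 8 others above 0 remained positive in every alternative.

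**Figure D2:**
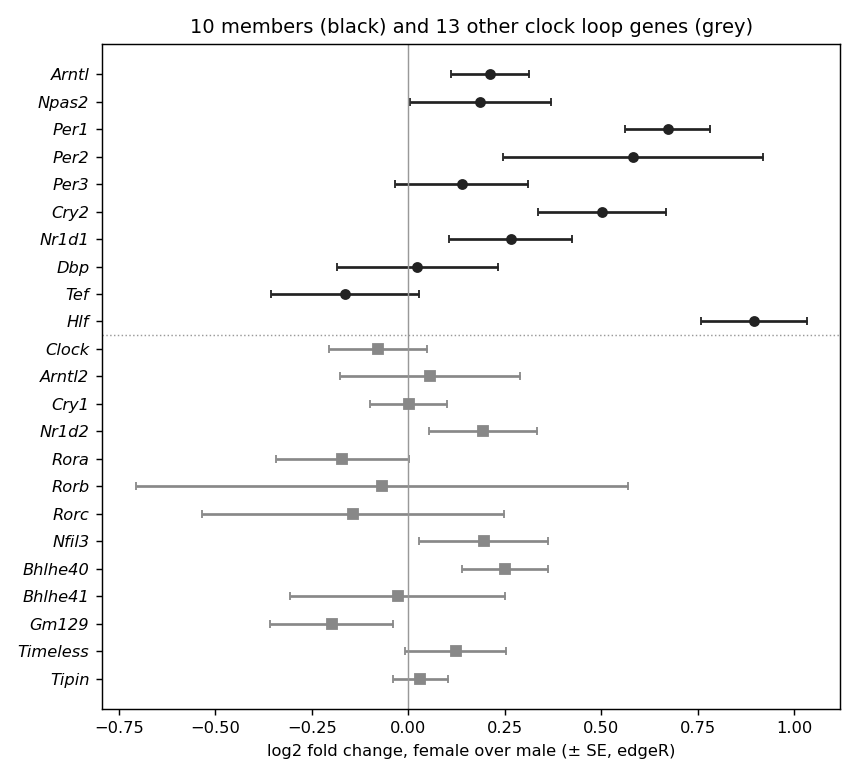
Log2 fold change, female over male, with its SE (x axis, edgeR) for the 10 members (black circles) and 13 other genes of the clock loop (grey squares). Hlf (0.90), Per1 (0.67), Per2 (0.58) and Cry2 (0.50) lie farthest to the right, and the grey squares lie between -0.20 and 0.25.

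Muscle content was set beside the female against male differences of Per1 and Hlf (log2 fold changes 0.67 and 0.90). With the fast muscle score as a covariate the log2 fold change of Per1 was 0.70 (SE 0.11) and that of Hlf 0.84 (SE 0.13). Without female replicate 3 and male replicate 2, the libraries with least and most muscle, they were 0.70 (SE 0.11) and 0.83 (SE 0.16). For Per2, whose highest value was in female replicate 3, the log2 fold change was then 0.33 (SE 0.34). For Nr1d1, whose highest male value was in male replicate 2, it was 0.41 (SE 0.14). Of the fast muscle genes themselves 19 of 20 had a log2 fold change below 0 (median -0.42), and edgeR and DESeq2 called 0 (0 also without adjustment in edgeR). All 17 tested hair follicle markers and all 11 tested mast cell markers lay above 0 (medians 0.40 and 0.42), with 0 called by edgeR or DESeq2 and 1 mast cell gene at an unadjusted p under 0.05 in edgeR. The summed CPM of the hair genes ran from 179 to 731 in males and from 413 to 1339 in females, and that of the mast cell genes from 117 to 173 in males and from 88.6 to 321 in females. None of the markers in these 3 lists was at 0 counts in a library. The part of muscle in the Per1 and Hlf differences was not tested beyond these values. That of hair and mast cells in the clock values was not tested.

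Around the sex means, 7 of the members (Per1, Per2, Per3, Cry2, Nr1d1, Dbp and Tef) varied together over the 8 libraries. Some of their pairs were weak, and some pairs with Dbp rested on 2 libraries. For this description each library's log2 CPM was taken as its deviation from the mean of its sex, which leaves 6 free values of 8. Both sexes were pooled in each r. Of the 28 pairs among the 8 repressors and PAR bZIP genes, 26 had a Pearson's r above 0, with a median of 0.65. Over all 87986745 pairs of genes with a mean CPM of at least 2, 50.0% lay above 0, and 6.32% had an r of 0.8 or more. Because the members were chosen with this co-variation in view, nothing is read from that comparison. The closest pairs were Per3 with Tef (r = 0.90, Spearman's rho = 0.93), Per1 with Cry2 (r = 0.86, rho = 0.76), and Per2 with Cry2 (r = 0.82, rho = 0.71). The weakest among the 7 were Per1 with Dbp (r = 0.27, rho = 0.02), Per2 with Nr1d1 (r = 0.28, rho = 0.31), and Cry2 with Dbp (r = 0.38, rho = 0.14). Without male replicate 1 and female replicate 2, r was 0.02 for Per3 with Dbp and -0.02 for Dbp with Tef. Over all 8 libraries these were 0.75 and 0.64. For Per3 with Tef, r without the same 2 libraries was 0.85. Without female replicate 3 and male replicate 2, 20 of the 21 pairs of the 7 lay above 0, and Per1 with Nr1d1 was at -0.12. All points in these correlations share the same 8 libraries, with their depth and their tissue make-up.

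Npas2 ran the other way. Its r was below 0 with all 8, from -0.07 with Hlf to -0.93 with Dbp, with a median of -0.72. With Per3 it was -0.90 (rho = -0.93), with Tef -0.84 (rho = -0.81) and with Nr1d1 -0.78 (rho = -0.90). Among 13265 other genes, 6 had a lower r with Npas2 than Dbp had, 17 a lower one than Per3, 65 a lower one than Tef and 144 a lower one than Nr1d1. The members were chosen with their co-variation in view, so nothing is read from these ranks. Male replicate 1 and female replicate 2 carried much of this relation. Without these 2 libraries, the farthest from the median of Npas2, r was -0.47 with Dbp and 0.00 with Per2, so these relations rest on them. It was then -0.90 with Nr1d1, -0.82 with Tef and -0.76 with Per3.

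**Figure D3:**
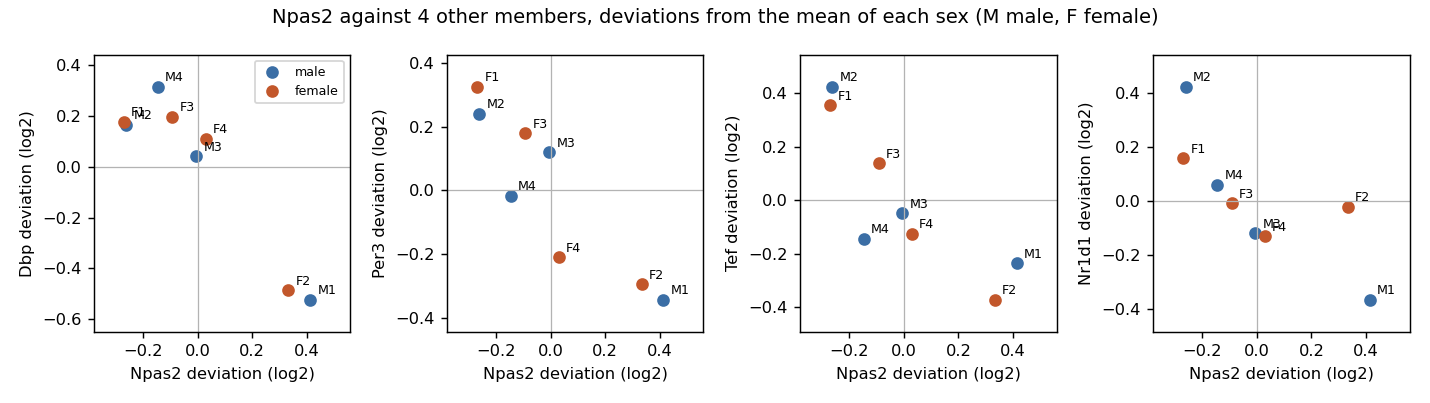
Deviation of Npas2 (x axis, log2 CPM minus the mean of its sex) against that of Dbp, Per3, Tef and Nr1d1 (y axes, same unit) in the 8 libraries, males in blue and females in orange. Male replicate 1 (M1) and female replicate 2 (F2) lie at the lower right for Dbp and Per3, where r over the 8 libraries is -0.93 and -0.90.

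The libraries thus had an order that most members shared. The mean standardised deviation of the 8 repressors and PAR bZIP genes was lowest in male replicate 1 (-0.99) and female replicate 2 (-0.80), followed by female replicate 4 (-0.59) and male replicate 4 (-0.26). It was 0.25 in male replicate 3, 0.64 in female replicate 1, 0.75 in female replicate 3 and 0.996 in male replicate 2. The deviations were taken from the mean of each sex, so each sex has libraries on both sides by construction. Male replicate 1 was the lowest male for 6 of the 8 genes and female replicate 2 the lowest female for 5, and both held for 4 genes (Per2, Per3, Dbp and Tef). Both held for 5.83% of all tested genes. These 2 libraries were named because the mean of the same 8 genes was lowest there, so nothing is read from this difference. Over all 8 libraries the fast muscle score did not follow this order. The 2 highest libraries, male replicate 2 and female replicate 3, had the most and the least muscle transcript. Apart from female replicate 3, the score went part of the way with the order. Female replicates 1, 4 and 2 ranked alike on both (muscle scores 9.93, 7.98 and 7.04), and male replicates 2 and 3 were the highest males on both. Over the 8 libraries, the r between the shared order and the muscle score was 0.01 (rho = 0.19). The very low score of female replicate 3 (0.997) weighs heavily in this r. With the muscle score removed from each gene, the median r was 0.66 among the 28 pairs and -0.75 for Npas2 with the 8. Only a straight-line relation over all 8 libraries was removed, and with the r of 0.01 above these medians could change little. Single members had a high r with the muscle score once libraries were left out, and which ones depended on the libraries. Without female replicate 3 and male replicate 4, the farthest from the median once the score is centred within sex, r was 0.85 for Tef, 0.79 for Nr1d1, 0.78 for Per3 and -0.88 for Npas2. Without female replicate 3 and male replicate 2, the lowest and highest scores, it was 0.71 for Tef, -0.11 for Nr1d1, 0.54 for Per3 and -0.22 for Npas2, and 0.94 for Per1 and 0.88 for Cry2. The part of muscle in the co-variation was not tested beyond these values. Male replicate 1 and female replicate 2 were also the lowest of their sex in the adipocyte, endothelium, Schwann cell and mast cell marker scores. The adipocyte score was 3.04 in both, against 3.62 to 4.45 in the other libraries. They were not both lowest for the keratinocyte, hair follicle, fibroblast, macrophage, muscle or red blood cell markers. The part of these cell types in the co-variation was not tested.

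**Figure D4:**
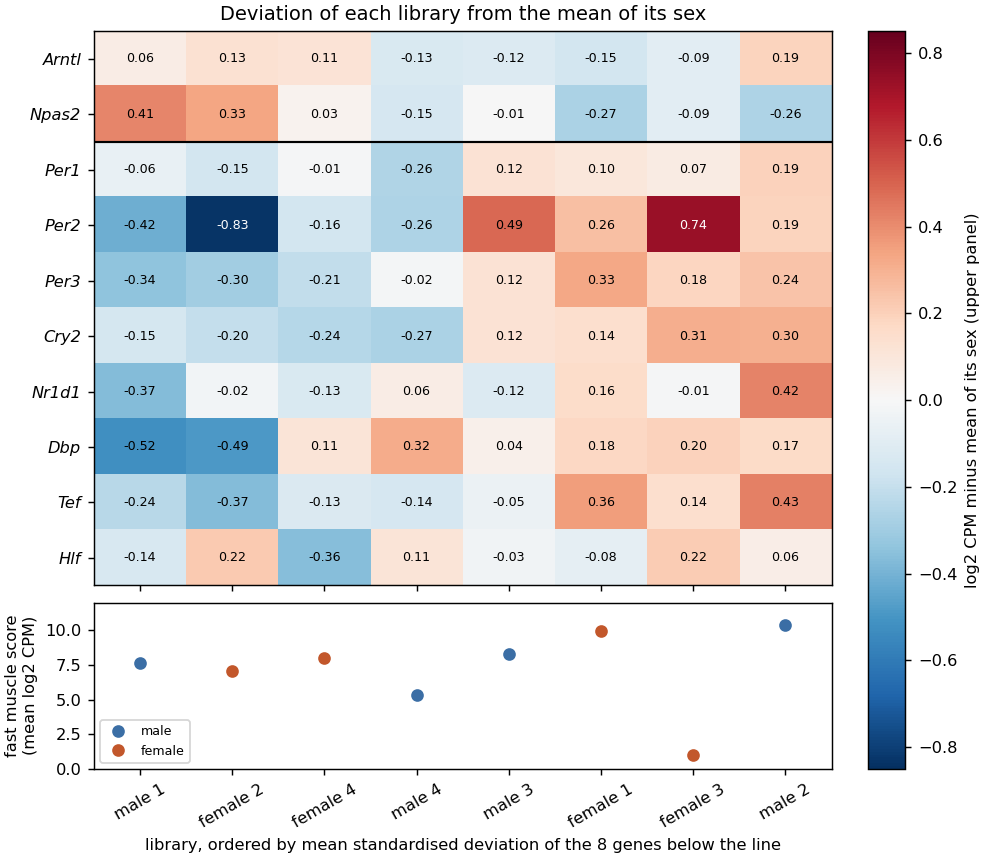
Upper panel, deviation of each member from the mean of its sex (colour and digits, log2 CPM), with libraries ordered by the mean standardised deviation of the 8 genes below the line. Lower panel, fast muscle score (mean log2 CPM of 20 genes) of the same libraries, which is highest in male replicate 2 (10.36) and lowest in female replicate 3 (0.997), the 2 libraries at the right end.

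Arntl and Hlf kept apart from the shared order. Arntl, which shares with Npas2 its place in the loop, had a median r of only -0.15 with the 8 genes and an r of 0.38 with Npas2. Male replicate 2 was high for Arntl (79.0 CPM) and low for Npas2 (13.4 CPM). Without male replicate 2 the median r of Arntl with the 8 genes was -0.74, and without both male replicate 2 and female replicate 3 its r was 0.91 with Npas2 and -0.98 with Per3. Hlf had an r between -0.17 and 0.36 with the 7 other repressors and outputs, whose 21 pairs among themselves all lay above 0 (median 0.71). Female replicate 2 was the lowest female for Dbp and Tef and had the highest Hlf of all libraries (74.5 CPM). The ratio of Hlf to Dbp CPM there was 2.77, against 1.22 to 1.72 in the other females and 0.816 to 1.23 in males.

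**Figure D5:**
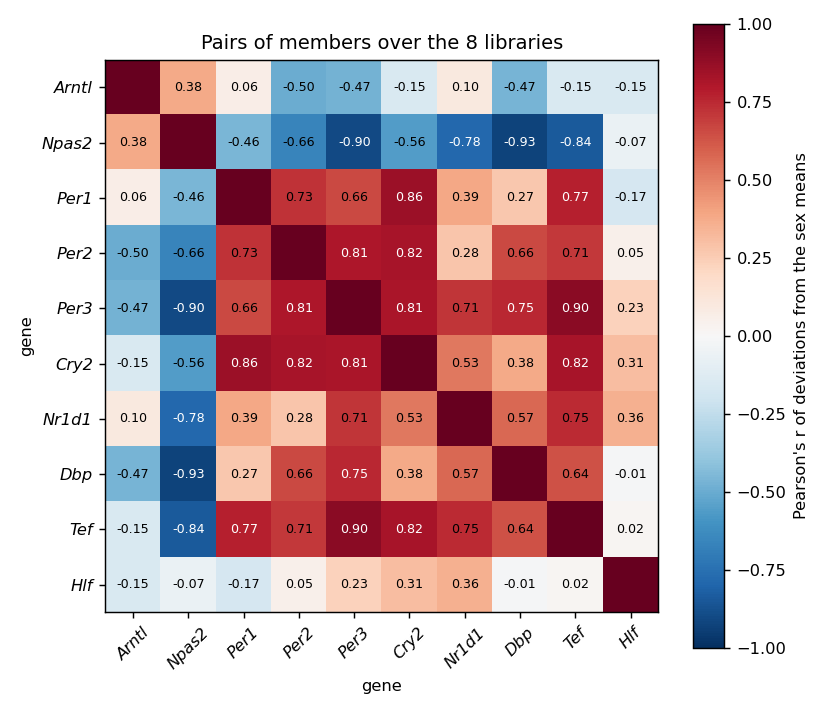
Pearson's r (colour and digits) of deviations from the sex means for each pair of members over the 8 libraries. Npas2 is below 0 with the 8 repressors and outputs, the 7 from Per1 to Tef are above 0 with each other, and Hlf lies between -0.17 and 0.36 with them.

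The rest of the loop was read from a list of 15 symbols, of which 13 were in the files and tested. Of these, 7 had a log2 fold change above 0 and 6 below, with a median of 0.00. None was called by edgeR, DESeq2 or limma-voom, and 0 had an unadjusted p under 0.05 in edgeR. Clock, the usual partner of BMAL1, stood at 242 ± 13.02 CPM in males and 229 ± 39.8 in females (SD, n = 4 each). Cry1, the other cryptochrome, stood at 26.6 ± 2.45 and 26.6 ± 2.27 CPM (log2 fold change 0.00, SE 0.10), where Cry2 had 0.50. The 4 genes of smallest p were Bhlhe40, which encodes a repressor that competes for E-boxes (0.25, SE 0.11, edgeR adjusted p = 0.767), Nr1d2 (0.19, SE 0.14, adjusted p = 0.920), Gm129 (-0.20, SE 0.16, adjusted p = 0.946) and Nfil3 (0.19, SE 0.17, adjusted p = 0.969). Gm129 is the older symbol of Ciart, a repressor of the loop, and NFIL3 competes with the PAR bZIP proteins for D-boxes.

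Nr1d2, which was not among the genes that set the order, followed it closely. It stood at 77.0, 116.9, 91.6 and 92.1 CPM in male replicates 1 to 4 and at 113.9, 93.5, 124 and 100.03 CPM in female replicates 1 to 4. Its r with the mean standardised deviation of the 8 genes was 0.95 (rho = 0.98), and 0.93 without the 2 libraries farthest from the median of that mean. Of 13256 genes outside the members with a mean CPM of at least 2, 1 had a higher r. Bhlhe40 had an r of 0.88, with 33 genes higher. Of the 12 loop genes at this level of expression, 7 lay above 0 with a median of 0.35, where the median of all genes was -0.02. The lowest of them was Timeless (-0.71), and Clock (-0.13) did not share the order. Cry1 (0.45) lay above the median of the 12 but well below Nr1d2 and Bhlhe40. The loop list was chosen with earlier results of these same libraries known, so nothing is read from these ranks and medians.

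The genes most like the shared order were Nbas, a trafficking factor (r = 0.98), Nr1d2 (0.95), Mipep, a mitochondrial peptidase (0.95), Gcnt4, a glycosyltransferase (0.95), and Dtwd2 (0.94). Among those most opposed were Gins3, a subunit of the replication helicase (-0.97), Acpl2 (-0.97), Gtl3 (-0.97), and Tpx2, a spindle assembly factor (-0.96). Over the same 13256 genes, 25 had an r of 0.9 or more and 52 an r of -0.9 or less. Closest to the mean of Arntl and Npas2 were Fam133b (0.93), the kinase gene Cdk17 (0.93) and the splicing factor gene Snrnp40 (0.92). These were named by rank alone.

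Of the genes that act on clock proteins or lie downstream of the clock, edgeR called none. Of 17 kinases, phosphatases, ubiquitin ligases and metabolic regulators of clock proteins, 10 lay above 0 and 7 below (median 0.06). Among those of smallest p were the phosphatase gene Ppp1ca (-0.14, SE 0.08, edgeR adjusted p = 0.829), the deacetylase gene Sirt1 (0.17, SE 0.10, adjusted p = 0.852), and the kinase subunit gene Csnk2a1 (0.15, SE 0.10, adjusted p = 0.909). The edgeR test called 0 of the 17 (0 also without adjustment), and DESeq2 and limma-voom called 0. Of 15 tested clock output genes, 3 lay above 0 and 12 below (median -0.10). EdgeR and limma-voom called 0 of them, and 3 had an unadjusted p under 0.05 in edgeR, against 6.53% of all tested genes. DESeq2 called 0.757% of all tested genes and 1 of the 15.

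That gene was Fkbp5, which encodes a co-chaperone of the glucocorticoid receptor. Fkbp5 stood at 33.1, 35.5, 35.3 and 28.8 CPM in males and at 22.3, 22.6, 19.6 and 25.1 CPM in females. The highest female lay below the lowest male (log2 fold change -0.57, SE 0.11, edgeR adjusted p = 0.179, DESeq2 adjusted p = 0.000303). Over the alternatives the adjusted p ran from 0.000303 to 0.999. Wee1, a mitotic kinase gene known as a clock target, stood at 19.8 ± 3.36 CPM in males and 26.8 ± 1.96 in females without overlap (0.44, SE 0.13, edgeR adjusted p = 0.594). A gap between the sexes, in either direction, was seen for 4.73% of all tested genes. Cdkn1a (-0.27, SE 0.11, adjusted p = 0.749) and Por (-0.10, SE 0.07, adjusted p = 0.893) followed, and neither passed.

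Per1 is also induced by glucocorticoids and by signals that raise immediate early genes, so both lists are given beside it. Of 18 glucocorticoid response genes, 8 lay above 0 and 10 below (median -0.11). EdgeR and limma-voom called 0, and 3 had an unadjusted p under 0.05 in edgeR, against 6.53% of all tested genes. DESeq2 called 1, Fkbp5, against 0.757% of all tested genes. The 3 were Fkbp5 and Cdkn1a, both below 0, and Nfkbia, an inhibitor of NF-kappa-B, above 0 (0.16, SE 0.07, edgeR adjusted p = 0.749), whose female libraries all lay above the male ones. Such a gap with females higher was seen for 2.93% of all tested genes. Fkbp5 and Cdkn1a are also among the clock output genes above. Of 20 immediate early genes, 8 lay above 0 and 12 below (median -0.08). The edgeR test called 0 of the 20 (0 also without adjustment), and DESeq2 and limma-voom called 0. The early genes of smallest p were Junb (-0.22, SE 0.10, edgeR adjusted p = 0.764) and Egr3 (-0.27, SE 0.14, adjusted p = 0.818). Fosb (0.39, SE 0.42, adjusted p = 0.999) was among those above 0. The part of either kind of signal in the Per1 values was not tested.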

How the data were processed

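Messenger RNA of 8 mouse paw libraries was counted per gene. Per the submitters' processing notes, the authors used bcl2fastq, TopHat2 and HTSeq with build mm9. The sources used here give no versions, annotation or strand setting. The deposited values are raw read counts per gene symbol, and the summary lines that name no gene were left out (reads in no feature, 18.0 to 21.1% of those placed once).

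The members and gene lists were chosen with earlier results of these data known. Counts were fitted with edgeR 4.0.16 in R 4.3.3 (filterByExpr, TMM, robust quasi-likelihood test, sex as the sole term, Benjamini-Hochberg over 14790 genes, calls at an adjusted p under 0.05). CPM values are TMM-scaled, and log2 CPM used a prior count of 0.5. An SE is the fold change on the log2 scale divided by the root of F. The script was checked on simulated data. Alternatives were other size factors, DESeq2 1.42.0, voom in limma 3.58.1, other filters, a non-robust fit, a replicate block, a muscle covariate, and libraries left out. Libraries of a sex all differed by more than sampling noise (chi-square per degree of freedom 13.2 or more). Nothing says that each library is a separate animal, so p-values measure the spread between these samples, which may be technical.

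Named were all members, every called gene of the lists, the 4 (pathway lists) or 2 (glucocorticoid and early gene lists) of smallest p, and the genes most like the members in within-sex r, though some of these are not reported here. Clock, Cry1, Timeless, Nfkbia, Fosb and the hair and mast cell lists were named after their values were seen. So were the adipocyte, endothelium and Schwann cell scores. The median log2 fold change of the other marker lists was -0.11 for keratinocytes (3 genes at an unadjusted p under 0.05 in edgeR, Lor, Ivl and Krt10, all below 0; DESeq2 called Lor, -0.44, adjusted p = 0.00496, edgeR adjusted p = 0.511), -0.12 for fibroblasts, -0.01 for adipocytes, -0.03 for macrophages, -0.04 for endothelium, 0.05 for Schwann cells and 0.44 for red blood cells (1 gene tested). Promoter sequences are from RefSeq, matched by symbol.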

Additional observations from a re-analysis of the deposited data

Results flagged for a closer look

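In 192 comparisons of 4 libraries of a sex (8 flags; chance gives about 1 in 20), a single library lay far from the others, on the log2 CPM scale. Of the members this held for Dbp in female replicate 2, at 4.75 against 5.35 to 5.43 in the other females. Among the other listed genes it held for Tipin in female replicate 4 (4.95 against 4.78 to 4.79), Egr2 in female replicate 3 (4.66 against 4.40 to 4.44) and Ier2 in female replicate 2 (6.77 against 6.26 to 6.33). In males it held for Sirt1 in replicate 3 (5.43 against 5.27 to 5.30), and for Gsk3b (7.24 against 6.91 to 6.95), Tsc22d3 (7.31 against 6.65 to 6.74) and Cdkn1a (8.30 against 8.46 to 8.48) in replicate 2, where muscle transcript was most abundant.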

How the results depend on the processing

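Female against male, 14 genes were called in all, 13 to 18 with other size factors, filters, limma-voom, a non-robust fit or the muscle covariate, 112 with DESeq2, 9 without both extreme muscle libraries, and 8 to 16 with single libraries left out (8 without male replicate 3 or male replicate 4). With the replicate number as a block, 7 were called. No pairing by number was seen: same-numbered libraries had deviations with an r of -0.34 to -0.13, and 0 of 8 libraries correlated best with its own number. The highest r, 0.82, was between male replicate 2 and female replicate 1, each with the most muscle of its sex. A weaker pairing could be hidden by such differences. Of the members, DESeq2 called 2, the fits without 1 library 0 to 1 (Hlf, without female replicate 4), and the other alternatives 0, the block included. DESeq2 called 1 clock output gene and 1 glucocorticoid response gene, both times Fkbp5. The other alternatives called 0 of those lists, and 0 of the loop, modifier and early gene lists were called in 18 alternatives. Between 8 and 9 members lay above 0 in all alternatives. The median r among the 28 pairs was 0.55 to 0.77 without single libraries and 0.57 to 0.67 otherwise. Not centred within sex, the median r of Arntl with the 8 genes was 0.18 in place of -0.15, and that of Npas2 was -0.38. With 4 libraries a sex and 231 counts or more per member, the spread between libraries, not depth, limits the precision.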
